A study of Mus musculus with 34 samples.

Results

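The Gadd45 genes Gadd45a, Gadd45b and Gadd45g encode small acidic nuclear proteins that cells make in response to stress. They are best known for holding back the cell cycle, where they bind the mitotic kinase Cdk1 with its cyclin, the replication clamp Pcna and the Cdk inhibitor Cdkn1a. They also bind and activate Map3k4, a kinase at the head of the p38 and JNK stress pathways, and they take part in DNA demethylation and repair. Each family member answers to its own set of signals in most tissues, so that the 3 genes are often induced apart from each other.

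The members were the 3 genes of that name among 52661 genes in an RNA-seq study of small molecules that change microexon splicing, together with their 9 introns among 160022 introns. They were chosen by their own RPKM (reads per kilobase of transcript and 1000000 reads) in each compound against DMSO, so those ratios are given as a description without a test. The libraries came from N2A (Neuro-2A), an established mouse neuroblastoma line, treated for 24 h with a compound in 0.4% DMSO, and all controls carried the same DMSO. DMSO alone had 3 libraries (A, B and C), the HDAC inhibitors Vorinostat, CI-994, BRD4884 and BRD6688 had 2 each (A and B), and each of 23 other compounds had 1, which makes 27 compounds, 28 conditions and 34 libraries. The study classed 17 of the compounds as activators and 10 as inhibitors of microexon inclusion. The activators were the 4 HDAC inhibitors, which block the enzymes that remove acetyl groups from histones, and inhibitors of AKT (A-443654), IGF1R (NVP-AEW-541), MEK (Trametinib), PDGFR (Crenolanib), ERK (SCH-772984) and TRK (GNF-5837), the benzenesulfonamides BTB12021, RDR00572, S02045 and RH01954, and the drug-like molecules BTB13120, BTBS00065 and SEW06315. The inhibitors were the WEE1 inhibitor MK-1775, the DNA methylation inhibitor 5-azacytidine, and the drug-like molecules AW00693, SPB00858, T5635931, T5758020, T5963258, T5985871, JFD00822, and a further molecule of the ChemBridge collection. The labels do not say that replicate libraries came from separate cultures. The study describes 2 biological replicates for DMSO and for each HDAC inhibitor, whereas DMSO has 3 libraries here. It does not state how the cultures were kept apart.

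Spliced reads, those that cross an exon-exon junction of an intron, ranged from 17702718 to 40613524 per library with a median of 26332957, and DMSO C was the shallowest of the DMSO libraries at 20013522. Of the markers of the line, Phox2a was at 78.9 RPKM, Hand2 at 248 RPKM, Isl1 at 15.5 RPKM, Stmn2 at 175 RPKM and Tubb3 at 396 RPKM in DMSO. None of the 8 markers of other cell types passed 5 RPKM in DMSO, and their summed level was 3.7 RPKM there.

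The genes are compact. Gadd45a lies on the minus strand of chromosome 6 (GRCm38 chr6:67035096-67037457), Gadd45b on the plus strand of chromosome 10 (chr10:80930073-80932204) and Gadd45g on the plus strand of chromosome 13 (chr13:51846678-51848468). Each main transcript has 4 exons and 3 introns and codes for 165, 160 and 159 residues in the order Gadd45a, Gadd45b and Gadd45g. No annotated gene overlaps Gadd45b or Gadd45g, whereas Gadd45a overlaps a noncoding gene on the other strand, and the library kit does not mark strand. That gene (RP23-129P10.1 in the expression table) had 4.22 RPKM in DMSO and stayed between 2.35 and 6.36 RPKM over the 28 conditions.

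Because the members moved together in some compounds, the 250 bases before each RefSeq start are printed, from RefSeq promoters of GRCm38.p6. These starts differ from the gene coordinates given above, so that the Gadd45a and Gadd45b windows reach into the genes as placed there. Capitals mark every match, on either strand, to a set of 6 promoter elements. These are the box with the letters CCAAT, the octamer with the letters ATTTGCAT, the E-box with the letters CACGTG, the TATA element with the letters TATAAA, the GC box with the letters GGGCGG and the cAMP response element with the letters TGACGTCA.
Gadd45a, chr6:67037408-67037657, minus strand: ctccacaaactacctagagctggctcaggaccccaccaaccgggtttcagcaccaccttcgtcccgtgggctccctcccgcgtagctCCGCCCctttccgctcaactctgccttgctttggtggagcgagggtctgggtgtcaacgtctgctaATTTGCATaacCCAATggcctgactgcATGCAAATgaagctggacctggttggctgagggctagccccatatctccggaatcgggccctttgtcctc
Gadd45b, chr10:80929841-80930090, plus strand: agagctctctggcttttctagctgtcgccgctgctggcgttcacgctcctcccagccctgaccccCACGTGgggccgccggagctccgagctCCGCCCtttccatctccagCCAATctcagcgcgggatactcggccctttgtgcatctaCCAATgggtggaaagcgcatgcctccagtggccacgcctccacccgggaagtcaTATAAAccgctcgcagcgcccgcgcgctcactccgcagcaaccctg
Gadd45g, chr13:51846425-51846674, plus strand: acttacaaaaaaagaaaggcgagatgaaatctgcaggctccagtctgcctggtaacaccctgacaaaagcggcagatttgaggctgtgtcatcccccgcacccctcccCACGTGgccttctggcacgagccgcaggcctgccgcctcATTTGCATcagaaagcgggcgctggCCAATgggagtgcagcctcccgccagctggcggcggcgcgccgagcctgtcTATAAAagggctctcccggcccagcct
All 3 windows held a CCAAT box, which 33.8% of 32851 promoters of this length hold, and none held the cAMP response element (1.55% of promoters). The octamer, present in 1.6% of promoters, occurred at 2 places in Gadd45a and 1 place in Gadd45g and was not found in the window of Gadd45b. The Gadd45b and Gadd45g windows shared an E-box (6.02% of promoters) and a TATA box (12.4%), neither of which was in that of Gadd45a. A GC box (32.7%) was in the Gadd45a and Gadd45b windows. These matches describe letters only.

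Introns are printed for one intron of each gene that an annotated transcript keeps, since the retention results below turn on the first intron of Gadd45b. Capitals mark the first 6 and the last 3 bases, which are the exon-intron borders.
Gadd45b intron 1, chr10:80930360-80930447, plus strand, 88 bases: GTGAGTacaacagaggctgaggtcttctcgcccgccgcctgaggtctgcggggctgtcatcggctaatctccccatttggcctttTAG
Gadd45a intron 1, chr6:67037112-67037200, minus strand, 89 bases: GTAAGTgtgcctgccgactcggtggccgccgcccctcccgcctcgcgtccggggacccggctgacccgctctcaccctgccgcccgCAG
Gadd45g intron 2, chr13:51847454-51847555, plus strand, 102 bases: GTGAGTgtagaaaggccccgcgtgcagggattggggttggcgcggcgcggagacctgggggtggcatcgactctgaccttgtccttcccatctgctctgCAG
These sequences are from GENCODE vM21 transcripts on GRCm38. The splicing table itself lists Gadd45b intron 1 at chr10:80393105-80393192 on mm9, and all 9 member introns had the same length in the table and in the annotation. Gadd45b intron 1 begins with GTGAGT and ends with TAG, whereas the other introns shown end with CAG. Its GC content was 59.1%, against 77.5% for Gadd45a intron 1 and 64.7% for Gadd45g intron 2. In both Gadd45a and Gadd45b, exon 1 holds 44 coding bases. Read from the start codon of exon 1, a transcript that keeps intron 1 has 15 codons before a stop codon. That stop lies at bases 2 to 4 of the intron (TAA in Gadd45a, TGA in Gadd45b). The annotated transcript that keeps the intron is classed as protein coding for Gadd45b and as a retained intron for Gadd45a. No other start codon is given here.

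In DMSO the 3 genes were expressed at low levels per length, with 12 RPKM for Gadd45a, 6.21 RPKM for Gadd45b and 7.88 RPKM for Gadd45g. The expression table holds 1 merged value a condition, so these levels have no spread of their own, and in such bulk samples fewer cells that express a gene and less RNA per cell cannot be told apart. The table alone does not show which neighbours in the order of conditions differ beyond their spread. A gene was called past 2-fold on the scale of RPKM plus a pseudocount of 0.5, where it had over 5 RPKM in the compound or in DMSO. By that rule Gadd45a was higher in 5 compounds and lower in none, Gadd45b was higher in 5 and lower in 1, and Gadd45g was higher in 4 and lower in none. All 3 genes were higher with T5985871, AW00693 and T5635931, which are inhibitors of microexons.

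**Figure D1:**
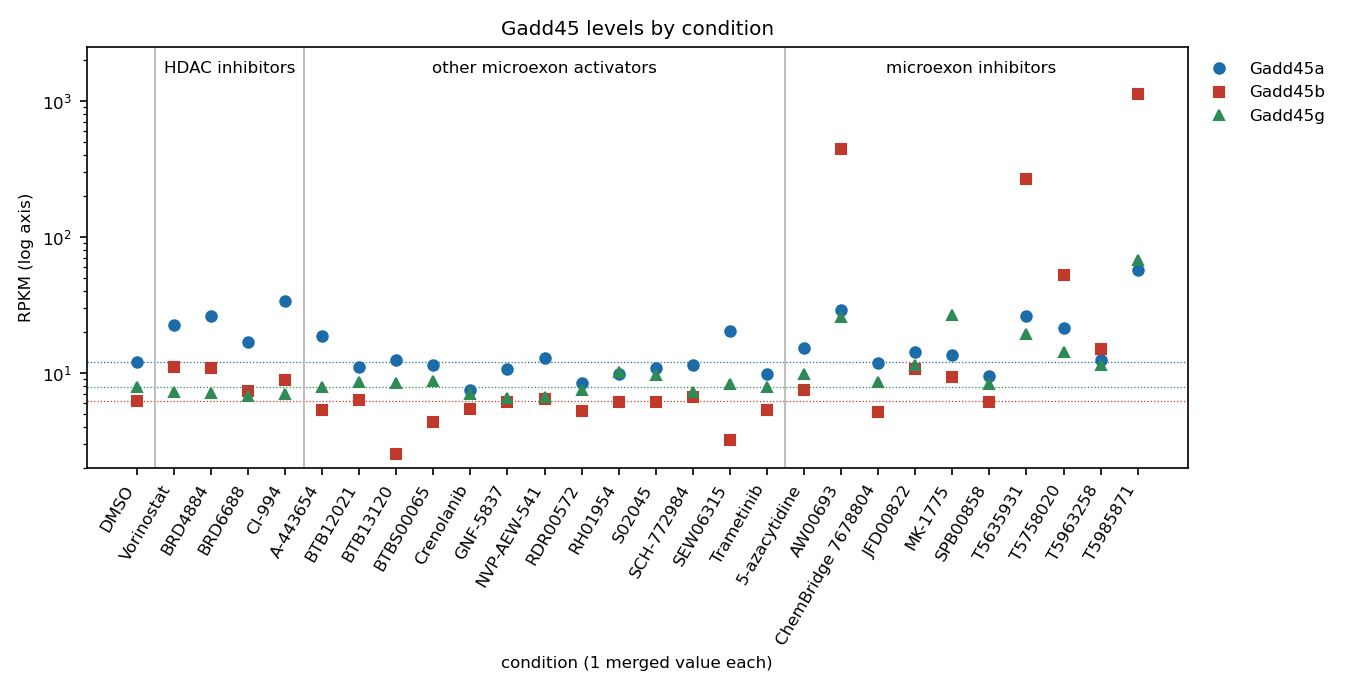
RPKM of Gadd45a, Gadd45b and Gadd45g (log axis) in DMSO and 27 compounds, 1 merged value a condition, with dotted lines at the DMSO level of each gene. Gadd45b stands highest with T5985871, AW00693 and T5635931, at 1128, 443 and 265 RPKM, while Gadd45g with the 4 HDAC inhibitors stays just below its DMSO line.

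Gadd45b, which is known as an early response gene downstream of NF-kB and TGF-beta signals, had by far the widest range. Its level was 1128 RPKM with T5985871, 443 RPKM with AW00693 and 265 RPKM with T5635931, against 6.21 RPKM in DMSO. On the scale with the pseudocount these are 168-fold, 66.1-fold and 39.6-fold. Its ratio ranked 1 of 9846 genes tested with T5985871, 2 of 9727 with AW00693 and 1 of 9689 with T5635931. It was also higher with T5758020, at 52.4 RPKM (7.88-fold, rank 8 of 9652), and with T5963258, at 15.1 RPKM (2.32-fold, rank 49 of 9593). The share of all tested genes past 2-fold upward was 6.05% with T5985871, 2.53% with AW00693, 1.54% with T5635931, 1.14% with T5758020 and 0.73% with T5963258, and since the members were chosen on these contrasts nothing is read from the members' count beside it.

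Over the 5 other microexon inhibitors Gadd45b stayed below the 2-fold limit in RPKM, from 5.12 RPKM with the ChemBridge molecule to 10.8 RPKM with JFD00822, although it was past 2-fold with JFD00822 and MK-1775 in the spliced reads described later. Among the 13 activators that are not HDAC inhibitors it had a median of 5.47 RPKM, from 2.52 RPKM with BTB13120 to 6.64 RPKM with SCH-772984. BTB13120 was the compound in which Gadd45b was lower past the limit, at 0.45 of DMSO, where 3.36% of all tested genes were called lower. The next lowest, SEW06315 at 3.19 RPKM (0.55 of DMSO), lay just outside the limit.

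Gadd45a, the member that is a classic target of p53 after DNA damage, was highest with T5985871 at 57.5 RPKM (4.64-fold). It reached 33.8 RPKM with CI-994 (2.74-fold), 28.9 RPKM with AW00693 (2.36-fold), 26.3 RPKM with T5635931 (2.14-fold) and 26.1 RPKM with BRD4884 (2.12-fold). Of all tested genes, 10.2% were called higher with CI-994 and 5.29% with BRD4884. Vorinostat, at 22.3 RPKM (1.83-fold), was the compound just outside the limit. Over the 13 activators other than HDAC inhibitors, Gadd45a had a median of 11.1 RPKM, from 7.49 RPKM with Crenolanib to 20.4 RPKM with SEW06315.

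Gadd45g, a member with known roles in the differentiation of neurons and T cells, was highest with T5985871 at 67.7 RPKM (8.13-fold). MK-1775 followed at 26.8 RPKM (3.26-fold), where 2.35% of all tested genes were called higher, then AW00693 at 25.7 RPKM (3.13-fold) and T5635931 at 19.3 RPKM (2.37-fold). T5758020, at 14.3 RPKM (1.77-fold), lay just outside the limit. In all 17 activators Gadd45g stayed within 1.5-fold of DMSO, from 6.5 RPKM with GNF-5837 to 10.1 RPKM with RH01954.

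By the 2-fold limit on RPKM, the members therefore had different compounds outside the set of 3 they shared. With T5758020, in which Gadd45b was past the limit, Gadd45a was at 1.75-fold and Gadd45g at 1.77-fold, below it. With MK-1775 Gadd45a was at 13.5 RPKM and Gadd45b at 9.31 RPKM, both within 2-fold of DMSO, beside the 26.8 RPKM of Gadd45g. With CI-994 Gadd45b was at 8.86 RPKM and Gadd45g at 6.96 RPKM beside the 33.8 RPKM of Gadd45a. Across the 28 conditions the log2 levels correlated with Pearson r of 0.842 for Gadd45b and Gadd45g, 0.727 for Gadd45a and Gadd45b and 0.578 for Gadd45a and Gadd45g. Over the 21 conditions left without the HDAC inhibitors, AW00693, T5635931 and T5985871, the same values were 0.528, 0.365 and 0.345. These describe conditions that share a DMSO vehicle and a table, and have no p.

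Spliced reads, which the table gives by library, did not give the same fold in every compound. Past 2-fold in spliced reads but not in RPKM were Gadd45a with Vorinostat (2.28 against 1.83) and Gadd45b with Vorinostat (2.52 against 1.72), BRD4884 (2.49 against 1.70), JFD00822 (2.22 against 1.68) and MK-1775 (2.02 against 1.46). Summed over the 3 introns of a gene and given per 1000000 spliced reads of the library (spliced RPM), Gadd45b had 7.61, 9.67 and 9.09 in DMSO A, B and C. It had 1610 with T5985871, 702 with AW00693, 364 with T5635931, 75.3 with T5758020 and 23.4 with T5963258, all above the DMSO libraries. With BTB13120 it had 3.57 and with SEW06315 4.88, both below them. These rest on 40083 spliced reads of Gadd45b with T5985871 and on 107 with BTB13120.

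For Gadd45g the DMSO libraries A, B and C had 8.54, 8.38 and 6.55 spliced RPM, against 76.3 with T5985871, 38.2 with MK-1775, 30.8 with AW00693 and 18.9 with T5635931. For Gadd45a they had 14, 13 and 13.4, against 74.7 with T5985871, 33.9 with AW00693, 27.8 with T5635931 and 21.1 with T5758020. The highest library of each gene was thus the T5985871 library, and all of the libraries named here lay above the 3 DMSO libraries. Of the 23 compounds with 1 library, 15 lay above all 3 DMSO libraries for Gadd45a, 15 for Gadd45b and 18 for Gadd45g. Below all 3 lay 7, 4 and 0 in the same order. Such a placing was thus common, its share over all genes was not computed, and nothing is read from it. Each of these compounds has 1 library, so none of the differences has a replicate check.

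The HDAC inhibitors are the compounds for which replicate libraries show the spread. Gadd45a had 23.7 and 24.6 spliced RPM with BRD6688, 30.8 and 30.7 with Vorinostat, 37.4 and 42.2 with BRD4884 and 55.6 and 52.9 with CI-994. None of the 8 libraries overlapped DMSO (13.5 ± 0.511, SD, n = 3), and all lay above it, as they did for 30.7% of 10264 genes. The 4 inhibitors did not overlap each other, with 2 libraries each. The share of genes with such an order was not computed, so nothing is read from it. Means were 24.1 ± 0.695 with BRD6688, 30.8 ± 0.0785 with Vorinostat, 39.8 ± 3.37 with BRD4884 and 54.3 ± 1.92 with CI-994 (SD, n = 2 each), or 1.79, 2.28, 2.95 and 4.02 times DMSO. BRD4884 and BRD6688 were given at the same concentration, and CI-994 and Vorinostat at lower ones that differed from each other.

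Gadd45b had 12.3 and 11.1 spliced RPM with BRD6688, 14.9 and 16.3 with CI-994, 23 and 20.7 with BRD4884 and 27.2 and 17.2 with Vorinostat. All 8 libraries were above the 3 DMSO libraries here too, but the libraries of Vorinostat differed by more than those of the other inhibitors, and its range covered that of BRD4884. Over all 10264 genes with enough spliced reads, 30.7% had all 8 inhibitor libraries above all 3 DMSO libraries, so this placing was common among genes. Gadd45g did not separate, with 6.36 and 10.9 for Vorinostat, 7.04 and 9.38 for CI-994, 7.72 and 8.1 for BRD6688 and 8.04 and 9.45 for BRD4884, which overlap DMSO (7.82 ± 1.11, SD, n = 3).

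**Figure D2:**
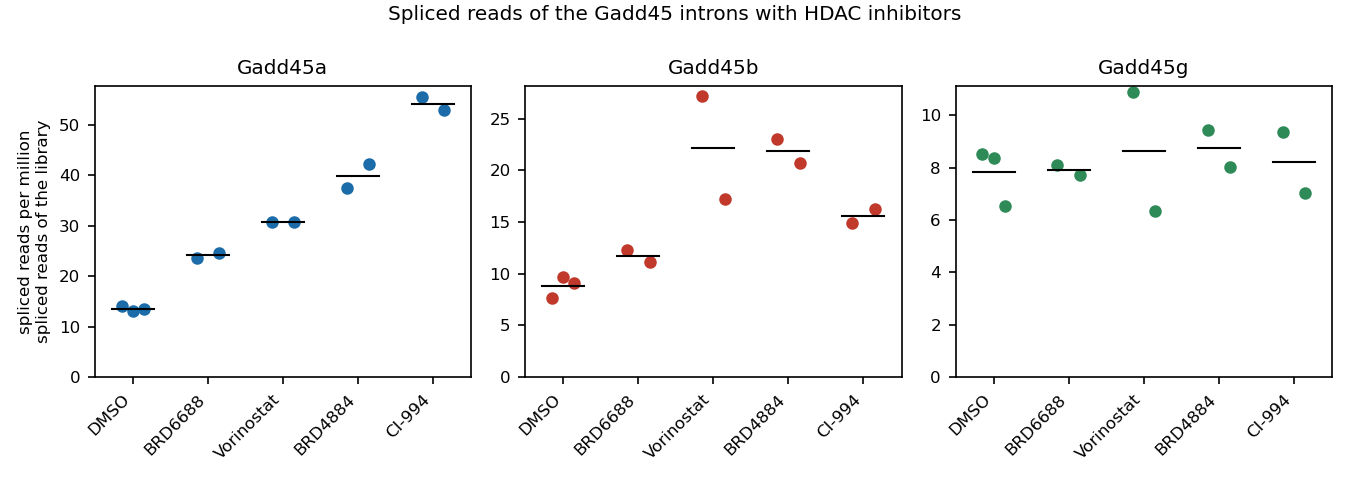
Spliced reads of the 3 introns of each Gadd45 gene per 1000000 spliced reads of the library, with DMSO and the 4 HDAC inhibitors; points are libraries and lines are means. Gadd45a rises from 13.5 in DMSO to 54.3 with CI-994, and its 8 inhibitor libraries lie above DMSO, as for 30.7% of 10264 genes. Gadd45g overlaps DMSO with each inhibitor.

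With the HDAC inhibitors the median log2 RPKM ratio of all tested genes was itself below 0, at -0.19 with BRD6688, -0.27 with BRD4884, -0.36 with Vorinostat and -0.44 with CI-994. Relative to that median, the log2 ratio of Gadd45a was 0.66, 1.35, 1.23 and 1.89 in the same order. That of Gadd45b was 0.41, 1.04, 1.14 and 0.92, so that on this scale Gadd45b passed 2-fold with BRD4884 and Vorinostat and Gadd45a also passed with Vorinostat. Gadd45g was between -0.02 and 0.27 with all 4 on this scale, although its uncentred ratios were all below 0.

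Retention of the introns, a readout the choice of the members did not use, was measured as the percentage of reads at an intron's borders that keep it (percent intron retention, PIR). The first intron of Gadd45b was kept most in the 4 compounds in which the gene was highest. Its PIR was 2.07, 0.81 and 0.49% in DMSO A, B and C. It was 12.7% with AW00693 (95% Wilson interval 12.2 to 13.3), 12.6% with T5635931 (11.8 to 13.4), 11.5% with T5985871 (11.1 to 11.9) and 7.17% with T5758020 (5.96 to 8.61). The reads behind these values are 2012 at the 5' border, 1355 at the 3' border and 11535 spliced with AW00693, against 7, 1 and 189 in DMSO A. The intervals cover counting error only, since reads carry no molecular identifiers.

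The differences from the DMSO mean were 11.62 points with AW00693, 11.47 with T5635931, 10.36 with T5985871 and 6.05 with T5758020. Of all introns measured, 0.489% rose by at least 10 points with AW00693, 0.475% with T5635931 and 1.26% with T5985871. By size of rise Gadd45b intron 1 stood at place 298 of 85708, 286 of 86302 and 945 of 80751 introns, and it was the only member intron past 10 points in any single-library compound. At the 3' border alone the difference with T5985871 was 9.68 points, below the 10-point limit, and with T5635931 it was 10.08. With T5963258, in which Gadd45b was 2.32-fold up, PIR was 3.27% (1.85 to 5.71), an interval that overlaps those of the DMSO libraries. With MK-1775 it was 5.46% (3.35 to 8.77) and with RH01954 5.38% (2.74 to 10.3), intervals that overlap that of DMSO A. Gadd45b was not past 2-fold in RPKM with either, at 9.31 and 6.13 RPKM, but was at 2.02-fold in spliced reads with MK-1775.

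The other introns of Gadd45b were spliced almost completely in the same libraries. Intron 2 was kept at 0.28% with AW00693 (0.177 to 0.444), 0.53% with T5635931 (0.341 to 0.822) and 0.38% with T5985871 (0.288 to 0.502). Intron 3 was kept at 0.1%, 0.2% and 0.22% in the same order. In DMSO these introns had 0.56 to 4.17% and 0 to 2.86%, with 46 to 111 and 31 to 50 spliced reads a library, so that DMSO gives no precise level for them.

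**Figure D3:**
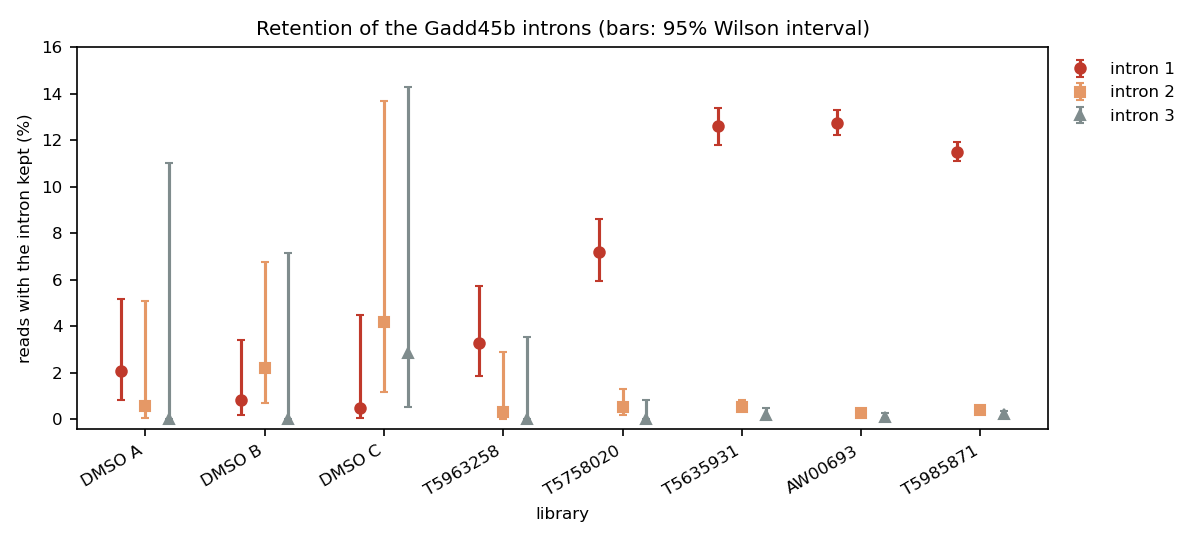
Percentage of reads that keep introns 1, 2 and 3 of Gadd45b in the 3 DMSO libraries and 5 single-library compounds; bars are 95% Wilson intervals. Intron 1 is at 11.5 to 12.7% with T5635931, AW00693 and T5985871 and introns 2 and 3 are below 1% there.

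A high level did not go with retention as high as that of Gadd45b intron 1 in the other family members. With T5985871, Gadd45a intron 1 was kept at 1.2% (0.599 to 2.39) and Gadd45g introns 1, 2 and 3 at 1.01%, 0.48% and 0.54%, while their spliced RPM were 74.7 and 76.3. Gadd45a introns 1 and 2 were kept at 0.45% and 1.28% with AW00693 and at 0.93% and 1.37% with T5635931. Gadd45a intron 1 had a mean of 0% in DMSO (n = 3), so it was higher with all 3 compounds. The Wilson interval of each DMSO library, given below, reaches above those values, so no DMSO library taken alone sets them apart. No interval was computed for the 3 together, which hold 474 spliced reads of this intron. Gadd45b with T5758020 had 75.3 spliced RPM, near those of Gadd45a and Gadd45g with T5985871, and 7.17% retention of intron 1. Gadd45a intron 3 with T5985871, and Gadd45g intron 1 with T5635931 and with MK-1775, failed the balance filter on the reads of both borders and have no value.

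**Figure D4:**
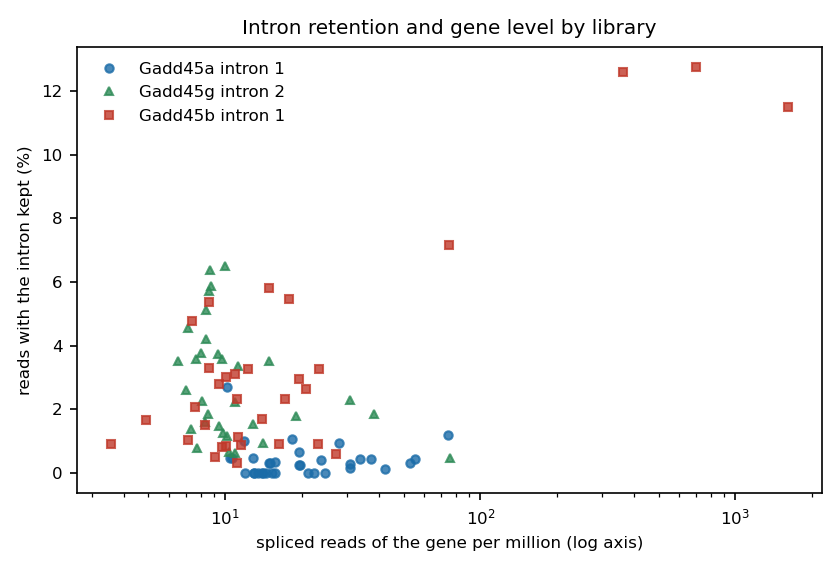
Percentage of reads that keep Gadd45b intron 1, Gadd45a intron 1 and Gadd45g intron 2 against the spliced RPM of the gene (log axis), for each library that passed the filters. The 4 Gadd45b points above 7% are T5758020, T5635931, AW00693 and T5985871; Gadd45a and Gadd45g at about 75 spliced RPM lie at 1.2% and 0.48%.

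Spliced reads also fell along Gadd45b from intron 1 to intron 3. The 3 DMSO libraries summed had 474 reads over intron 1, 246 over intron 2 and 115 over intron 3, and AW00693 had 11535, 6301 and 3855. The ratio of intron 1 to intron 3 was 4.12 in DMSO and 2.99 with AW00693, 2.53 with T5635931 and 2.73 with T5985871. In Gadd45g it was 2.3 in DMSO and 1.76, 2.09 and 2.04 with the same compounds in that order, also lower than in DMSO. In Gadd45a it was 1.27 in DMSO and 1.13, 1.67 and 1.24. The other splicing events of the members, 10 exon and splice-site events, were nearly constant. The lowest PSI (percent spliced in) of any annotated exon of the members over the 34 libraries was 89.4, for a 102-base exon of Gadd45g with a median of 100.

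With the HDAC inhibitors, retention was tested over replicates. Limma was fitted to all introns in the 11 libraries of DMSO and the 4 inhibitors, two-sided, with Benjamini-Hochberg adjustment over all introns. Of all introns, 0.423% were called with Vorinostat, 0.166% with BRD4884, 0.14% with BRD6688 and 1.18% with CI-994. None of the 9 member introns was called by limma with any inhibitor, and the lowest adjusted p was 0.363. At an unadjusted p below 0.05, 1 member intron passed with BRD6688 and 1 with CI-994. These were Gadd45g intron 3 with BRD6688, with a log2 odds difference of -1.39 ± 0.32 (SE; limma adjusted p = 0.523), and Gadd45a intron 1 with CI-994, at 0.46 ± 0.16 (limma adjusted p = 0.363). Both BRD6688 libraries had no read that kept Gadd45g intron 3, beside 73 and 80 spliced reads, and their Wilson intervals reach 5 and 4.58%, above the 0.8 to 2.38% of the DMSO libraries.

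Gadd45b intron 1 varied between libraries of an inhibitor, at 5.81 and 0.91% with CI-994, 3.27 and 0.32% with BRD6688, 0.92 and 2.65% with BRD4884 and 0.6 and 2.33% with Vorinostat. CI-994 A and BRD6688 A lay above the DMSO libraries and their partner libraries did not. The log2 odds difference from DMSO was 0.87 ± 0.80 (SE) with CI-994, which limma did not call (adjusted p = 0.769). With the 4 inhibitors together, the mean was 2.1% against 1.12% in DMSO, a difference of 0.978 points (exact permutation test, two-sided, p = 0.382, 8 against 3 libraries, where the smallest p is 0.00606).

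Of the 9 introns tested this way, 1 had an exact permutation p below 0.05, before any correction for 9 tests. Gadd45g introns 1 and 2 each lacked 1 inhibitor library that failed the balance filter (7 against 3), and the p of the 8 other introns lay between 0.325 and 0.873. Gadd45a intron 1 had no retained read in the 3 DMSO libraries (209, 159 and 106 spliced reads in A, B and C) and a mean of 0.274% over the 8 inhibitor libraries, from 0 to 0.45%, with an exact permutation p of 0.0364. The Wilson intervals of A, B and C reach up to 1.8, 2.36 and 3.5%, above every inhibitor library. No DMSO library taken alone is therefore deep enough to show a difference of this size. Without any 1 of the DMSO libraries the exact permutation p was 0.0889.

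Of the partners that Gadd45 proteins bind, all 9 on the list were tested in the compounds that raised the members. With AW00693 and T5635931 none passed 2-fold in either direction, where 2.57% and 1.78% of all tested genes were called lower. With T5985871 the Cdk inhibitor Cdkn1a alone passed, and was higher at 28.2 RPKM against 11.6 RPKM in DMSO, where 6.05% of all tested genes were called higher and 8.41% lower. Cdk1, which drives entry into mitosis, had 447 RPKM with T5985871 against 667 RPKM in DMSO, and its cyclin Ccnb1 had 254 against 340 RPKM.

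With CI-994, 6 of the 9 partners were lower and 1 was higher, where 26.1% of all tested genes were called lower, and the list's median log2 ratio was -1.23 against -0.44 for all genes. Vorinostat also had 6 lower and 1 higher, where 22.5% of genes were called lower. With BRD4884 and BRD6688, 3 were lower and 1 was higher, where 4.42% and 6.75% of genes were called lower. With GNF-5837, which is not an HDAC inhibitor, 3 were lower and none was higher, where 5.7% of genes were called lower. With CI-994, Cdk1 was at 69.5 RPKM, Ccnb1 at 32 RPKM and the replication clamp Pcna at 66.5 RPKM, against 667, 340 and 353 RPKM in DMSO. Cdkn1a was higher in 9 compounds, among them all 4 HDAC inhibitors, up to 62.8 RPKM with Vorinostat. In the same conditions the summed level of the 8 markers of other cell types was 20.9 RPKM with CI-994 and 17.1 RPKM with Vorinostat, against 3.7 RPKM in DMSO, with Col1a1 the member above 5 RPKM, and Epcam at 0.06 RPKM or below in every condition. Their part in the result was not tested.

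Of the 12 p38 and JNK pathway kinases, 10 were expressed enough to be tested in each of these compounds. None was past 2-fold with T5985871, AW00693, T5635931 or T5758020, and the list's median log2 ratio with T5985871 was -0.47 against -0.20 for all genes. In the order of the compounds named, 6.05%, 2.53%, 1.54% and 1.14% of all tested genes were called higher. Those called lower were 8.41%, 2.57%, 1.78% and 1.6%. With CI-994, 2 of 10 were lower, Map2k7 and Mapk12, both named after their values were seen, where 26.1% of all tested genes were called lower. Vorinostat had 3 of 10 lower, where 22.5% of genes were called lower. Both counts were near the share of all genes.

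The mRNA levels of tested regulators known to act upstream of the Gadd45 genes were within 2-fold of DMSO in the compounds in which all 3 members were higher. Their protein activity was not measured here. None of the 8 tested passed the limit in either direction with T5985871, AW00693 or T5635931. Of all tested genes, 6.05%, 2.53% and 1.54% were called higher there and 8.41%, 2.57% and 1.78% lower. With CI-994, 4 of the 9 tested were lower and 1 was higher, where 26.1% of all tested genes were called lower and 10.2% higher. Vorinostat had 4 of 8 lower and 1 higher, where 22.5% of genes were called lower and 10.4% higher. BRD4884 had 1 of 8 lower, where 4.42% of genes were called lower, and BRD6688 had 2 of 8 lower, where 6.75% were. The mRNA of Trp53, which encodes p53, was at 91.2 RPKM with T5985871 against 73.6 RPKM in DMSO, and at 19.9 RPKM with CI-994 and 14.8 RPKM with Vorinostat. Brca1 was at 4.81 RPKM with CI-994 against 22.9 RPKM. The immediate early factor Egr1 fell from 16.8 to 0.26 RPKM with Trametinib, in which the 3 members stayed within 1.5-fold of DMSO. Foxo3 rose to 38.4 RPKM with GNF-5837 from 11.3 RPKM, likewise without a call in any member.

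Other growth arrest and stress genes overlapped the members' compounds in part. With T5985871, where 6.05% of all tested genes were called higher, 5 of the 9 tested were higher. They were Ppp1r15a (also called Gadd34, which brings a phosphatase to the translation factor eIF2), Ddit3 (also called Gadd153 or CHOP), Cdkn1a, Ddit4 and Atf3, of which the last pair was named after the values were seen. The list's median log2 ratio there was 1.21 against -0.20 for all genes. Ppp1r15a was at 107 RPKM with T5985871, 48.5 RPKM with AW00693 and 39.9 RPKM with T5635931, against 16.2 RPKM in DMSO. Ddit3, a marker of the integrated stress response, was at 62.6, 34.9 and 38.4 RPKM against 26.7 RPKM in DMSO, and passed 2-fold with the first of these alone.

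As many of these genes, 5 of 9, were higher with SEW06315, an activator of microexons, where the list's median log2 ratio was 1.25 against -0.14 for all genes, and 1.89% of all tested genes were called higher. It had Ddit3 at 140 RPKM, Ppp1r15a at 84.5 RPKM and Trib3, a pseudokinase downstream of Ddit3, at 88.2 RPKM against 18.1 RPKM in DMSO. Gadd45b was at 3.19 RPKM and Gadd45g at 8.36 RPKM in that compound, and Gadd45a at 20.4 RPKM, none of them past 2-fold. With MK-1775, where 2.35% of all tested genes were called higher, 3 of 9 were higher, Ddit3, Cdkn1a and Klf6, the last named after its values were seen. The line marker Mycn was at 23.8 RPKM with T5985871 against 10.9 RPKM in DMSO, and the summed markers of other cell types were at 10.4 RPKM there, with Cd68 at 5.2 RPKM. Their part in the result was not tested.

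**Figure D5:**
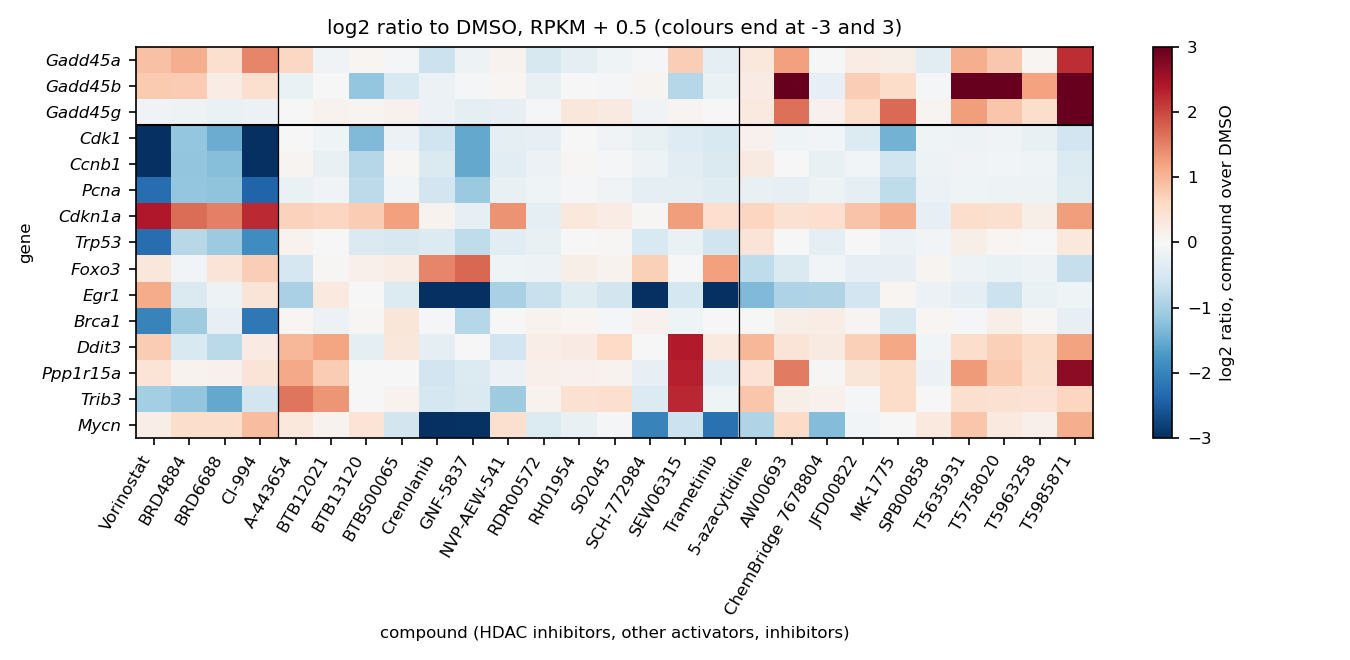
Log2 ratio of RPKM plus 0.5 in each compound over DMSO for the 3 Gadd45 genes (above the line) and the named genes of the fixed lists, with HDAC inhibitors, other activators and inhibitors from left to right. Colours end at -3 and 3, beyond which Gadd45b goes up with T5985871, AW00693 and T5635931 and Gadd45g with T5985871. Cdk1 and Ccnb1 have their lowest ratios with CI-994, and Egr1 falls further, to -4.51 with Trametinib.

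The genes whose log2 level followed each member most closely over the 28 conditions, among 11478 genes above 5 RPKM in some condition, differed between the members. For Gadd45b they were Sertad1 (r = 0.959), the unnamed gene ENSMUSG00000107722.1 (0.947), Cdk2ap2 (0.942), Rasl11b (0.941) and Terf2ip (0.932). For Gadd45g they were Flcn (0.917), RP23-81C12.1 (0.907), RP24-132G6.4 (0.886), Ankrd37 (0.886) and Ccdc115 (0.879). For Gadd45a they were the early response gene Ier3 (0.884), the growth factor Hbegf (0.881), Arl4d (0.877), the spliceosomal RNA gene Rnu12 (0.856) and Arc (0.855). All 15 were highest with T5985871, and the likeness rests on few conditions. Sertad1 was at 145 RPKM with T5985871 against 6.26 RPKM in DMSO.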

How the data were processed

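PolyA+ RNA-seq was made from N2A cells with the Illumina TruSeq v2 kit. RPKM, as deposited, came from Salmon run by the authors on GENCODE vM21 transcripts, with replicates merged (version 0.10.2 per the labels, which differs from that of the methods). The deposited percent values of splicing and retention, and the quality score strings with the read counts behind them, were made by the authors with vast-tools on mm9. The deposited fold changes, p-values and FDR of the authors' own comparisons, for which edgeR is named, were not used. No per-library column was left out (0). Members and gene lists were chosen with earlier results of these data known.

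Genes were joined by identifier. An intron was used in a library with 15 or more reads and, for the 2 borders, a balance p over 0.05. Retention was tested as log2((PIR + 1)/(101 - PIR)) with limma 3.58.1 in R 4.3.3 over introns with values in 2 or more DMSO libraries and 1 or more inhibitor libraries, and checked on simulated data. Other values were computed with Python 3.11.15. Named genes were the members, list genes above 5 RPKM and past 2-fold in at least 3 compounds (up to 4 a list), and the 5 genes closest to each member. Spliced reads per library ranged from 17702718 to 40613524, which sets the width of the Wilson intervals. Alternatives changed the pseudocount, the RPKM limit, the fold limit, centring, scaling, read minimum, balance filter, PIR scale, the replicate block, and left out each library in turn. Some markers of the line are not reported here.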

Additional observations from a re-analysis of the deposited data

How the results depend on the processing

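The number of compounds past 2-fold (5 for Gadd45a, 6 for Gadd45b and 4 for Gadd45g) was the same with a pseudocount of 0.1 or 1, a limit of 1 RPKM and no limit on RPKM. Centring on the median of all genes gave 6, 8 and 4, and a 1.5-fold limit 10, 10 and 5. The median number of all genes called over the 27 compounds was 321, and 798 with a limit of 1 RPKM, 1047 with no limit and 1154 with a 1.5-fold limit. The mean log2 ratio of spliced reads with HDAC inhibitors to DMSO was 1.40 for Gadd45a, 0.96 for Gadd45b and 0.08 for Gadd45g. Scaling by the median ratio over introns gave 1.44, 1 and 0.12, and leaving out 1 library in turn gave 1.31 to 1.48, 0.87 to 1.05 and -0.034 to 0.15, the last below 0 (-0.034) without DMSO C. Limma called 0 of the 9 member introns with each inhibitor under every alternative, those without a library included. With the replicate block it also called 0, at a lowest adjusted p of 0.433. Over all introns the calls changed from 372, 150, 126 and 1048 (Vorinostat, BRD4884, BRD6688 and CI-994) to 227, 135, 107 and 493 with the block, and rose to 2561, 1600, 1657 and 8657 at most, each time with 1 library of that inhibitor left out, where the lone library is assumed to vary like the other groups. Only the letters A and B are shared, and the differences A minus B of pairs of conditions correlated between -0.046 and 0.007, so the letters do not pair libraries. For the inhibitors together, leaving out 1 DMSO library gave differences in points of 0.274 for Gadd45a intron 1 (exact permutation p of 0.0889 for each), -0.75 to 0.26 for intron 2 and -0.794 to 0.571 for intron 3. For Gadd45b these were 0.661 to 1.451, -1.141 to 0.664 and -0.961 to 0.469, and for Gadd45g -0.096 to 2.264, -1.463 to -0.278 and -0.209 to 0.581. Gadd45a introns 2 and 3, Gadd45b introns 2 and 3 and Gadd45g introns 1 and 3 change sign, so no direction is given for them. With the means of the 4 inhibitors or at least 30 reads each kept its direction and its side of 0.05. Of the 5 closest genes, those shared without the HDAC inhibitors were 0 for Gadd45a, 4 for Gadd45b and 3 for Gadd45g, and with Spearman's rho 2, 0 and 2. The rise of Gadd45b intron 1 was computed in other ways chosen after seeing the data. Leaving out 1 DMSO library gave 11.3 to 12.09 points with AW00693, 11.15 to 11.94 with T5635931, 10.04 to 10.83 with T5985871 and 5.73 to 6.52 with T5758020. From the 5' border alone it was 12.58 with AW00693 and 12.49 with T5635931, and from the 3' border alone 10.3, 10.08 and, with T5985871, 9.68. Depth limits the DMSO values of the Gadd45 introns, which rest on 27 to 209 spliced reads a library. The causes of these changes were not tested.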
